A study of Homo sapiens with 21 samples.

Results

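The pyrimidine metabolism genes on which the response to 5-fluorouracil depends were read from RNA-seq of parental cancer cell lines and lines derived from them under increasing doses of a drug. The group holds 9 genes (TYMS, DPYD, TYMP, UMPS, UPP1, TK1, RRM1, RRM2 and DUT) out of 53515 Ensembl genes counted in each of 21 libraries. They were chosen by symbol for their role in handling the drug and by no rule on their values, but with earlier results of these data known. All 9 were listed in every library, although UPP1 had no counts in 1 library whose counts stop partway through chromosome 7. In front stood the 5-fluorouracil lines PancB1Q and PancB1V, each compared with PancVB, the sensitive line of Panc 03.27 pancreatic adenocarcinoma origin, and with 1 library per line. The other resistant lines were HepG2S1 and HepG2S3 (sorafenib) against the liver line HepG2, HCC4006ER (erlotinib) against the lung line HCC4006P1, HCC4006GR (gefitinib) against the lung line HCC4006P2, HCC827GR (gefitinib) against the lung line HCC827P, U10 and U100 (olaparib) against the ovarian line UWB1.289, and IGROV-1/CDDP (cisplatin) against the ovarian line IGROV-1. Only HepG2, HepG2S3, HCC4006P1 and HCC4006ER had 2 libraries, and each resistant line was 1 derivative of its parent, so drug, derivative and library cannot be told apart within a pair.

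5-Fluorouracil is a uracil analog that cells take into their own pyrimidine pathways. Thymidine phosphorylase (TYMP) and uridine phosphorylase (UPP1) attach a sugar to the base, UMP synthase (UMPS) converts it directly to a nucleotide, and thymidine kinase (TK1) phosphorylates the deoxynucleoside. Ribonucleotide reductase, made of the large subunit RRM1 and the small subunit RRM2, turns ribonucleotides into deoxyribonucleotides, and among them the fluorinated form that binds thymidylate synthase (TYMS), the enzyme that makes dTMP from dUMP. Dihydropyrimidine dehydrogenase (DPYD) starts the breakdown of the drug, and the dUTPase DUT removes dUTP and its fluorinated form before they enter DNA. TYMS, TK1, RRM2 and DUT are also known for transcription that rises as cells enter S phase, so RNA levels of these enzymes in a growing culture depend on how many cells are in cycle.

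In the GRCh37 annotation, TYMS (ENSG00000176890) lies on chromosome 18 from 657653 to 673578 on the plus strand, where it overlaps ENOSF1 and TYMSOS on the other strand. DPYD (ENSG00000188641) spans 97543299 to 98460556 on the minus strand of chromosome 1. TYMP (ENSG00000025708) runs from 50964181 to 50968461 on the minus strand of chromosome 22 and overlaps ODF3B on the same strand. UMPS (ENSG00000114491) is at 124449280 to 124468120 on chromosome 3, plus strand. UPP1 (ENSG00000183696) is at 48128225 to 48148333 on chromosome 7, plus strand. TK1 (ENSG00000167900) is at 76170172 to 76183314 on chromosome 17, minus strand. RRM1 (ENSG00000167325) is at 4115937 to 4160162 on chromosome 11, plus strand, with RRM1-AS1 overlapping it. RRM2 (ENSG00000171848) is at 10260825 to 10351851 on chromosome 2, plus strand, and DUT (ENSG00000128951) at 48623208 to 48635570 on chromosome 15, plus strand. The kit is described as stranded, but the strand setting of the counting is not given in the sources used here, so reads of TYMS and RRM1 and of their antisense partners could not be told apart.

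The bases before the start sites are shown for the replication genes of the group, because these genes moved together in several of the pairs below. The sequences are RefSeq's for GRCh38.p14, 5′ to 3′ on the gene's strand, and capitals mark a match on either strand to TTTCCCGC or TTTGGCGC, forms of the E2F site, or to CCAAT, the box bound by NF-Y. For TYMS and RRM1 the 250 bases before the only listed start are given, and for RRM2, TK1 and DUT stretches of 30 bases around matches in 1 window of each.
TYMS, chr18:657403-657652, plus strand: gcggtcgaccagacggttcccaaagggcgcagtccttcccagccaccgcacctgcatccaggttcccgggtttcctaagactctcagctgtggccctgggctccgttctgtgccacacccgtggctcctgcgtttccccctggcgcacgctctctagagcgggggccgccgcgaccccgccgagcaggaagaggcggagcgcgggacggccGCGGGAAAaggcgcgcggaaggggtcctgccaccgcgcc
RRM1, chr11:4094435-4094684, plus strand: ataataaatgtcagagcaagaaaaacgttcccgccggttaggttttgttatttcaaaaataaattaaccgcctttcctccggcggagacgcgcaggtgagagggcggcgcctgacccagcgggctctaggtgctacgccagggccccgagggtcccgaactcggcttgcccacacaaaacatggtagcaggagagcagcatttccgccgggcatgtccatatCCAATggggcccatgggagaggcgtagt
RRM2, chr2:10122603-10122632, plus strand: gggcaaggcgcagCCAATgggaagggtcgg
RRM2, chr2:10122633-10122662, plus strand: aggcatggcacagCCAATgggaagggccgg
RRM2, chr2:10122660-10122689, plus strand: cggggcaccaaagCCAATgggaagggccgg
TK1, chr17:78187113-78187142, minus strand: cggccgggcgctgATTGGccccatggcggc
TK1, chr17:78187082-78187111, minus strand: gggccggctcgtgATTGGccagcacgccgt
DUT, chr15:48332151-48332180, plus strand: gctgGCGGGAAAtttcggtTTTGGCGCgct

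TTTCCCGC was found in 1.39% of all 35116 RefSeq windows of 250 bases, TTTGGCGC in 0.55% and CCAAT in 32%, counting both strands. Over the 9 genes, CCAAT was found in some window of 4 (RRM1, RRM2, TK1 and TYMP) and an E2F form in 2 (TYMS and DUT), so the box was not particular to the replication genes. Each RRM2 match shown was followed by gggaaggg, and a further CCAAT upstream of them, not shown, was not. TK1 and TYMP held the box on the opposite strand. The 9 genes had 18 windows, so counts per gene are not on the scale of shares per window. These matches describe letters in the windows. GGGCGG, the GC box bound by Sp1, was found in 42.6% of windows and in some window of 7 of the 9 genes.

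Libraries held between 9851195 and 36639473 counts on genes. Levels are given as CPM, read counts scaled to a common library total, with the genes positioned before the break in HCC4006P1 replicate 1 as the total. That library had a count on 0 of the 1679 genes after the break that had at least 50 counts in replicate 2, so the UPP1 level of HCC4006P1 rests on replicate 2. A change between a single pair of libraries is the difference of log2(CPM + 1), resistant minus parental, its interval in brackets covers counting error at 95% and not culture-to-culture variation, and past 2-fold means a log2 difference of at least 1 in size. The labelled tissue was checked on marker genes. ALB, the liver's serum albumin, was at 19743 and 10225 CPM in the HepG2 libraries, at 0 in HepG2S1 and at 9.27 and 13.4 in HepG2S3. AFP was at 6161 and 2703 CPM in HepG2, 0 in HepG2S1 and 14.6 and 3.96 in HepG2S3, and APOA1, TTR and FGB were likewise far below HepG2 in both derived lines, whereas the keratin KRT7 was at 1.3 CPM in HepG2 and at 3481 and 3598 in HepG2S1 and HepG2S3. HCC4006P1 had the lung markers NKX2-1 and NAPSA at 0.1 CPM, while HCC4006P2, which carries the same line name, had them at 140 and 177. Of the pancreatic ductal markers, KRT19 had 838 CPM in PancVB against 104 in PancB1Q and 36.4 in PancB1V, KRT7 3148 against 1343 and 1116, and SOX9 117 against 247 and 262, with PDX1 at or under 0.3 CPM in all 3 lines. Of the ovarian markers, PAX8 was at 469 to 891 CPM in the 5 ovarian lines, WT1 and EMX2 were under 1 CPM in each, and MUC16 was under 1 CPM in IGROV-1 and IGROV-1/CDDP.

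To ask how the enzymes that act on 5-fluorouracil differed in lines made resistant to that drug, PancB1Q and PancB1V were compared with PancVB. The drug's target TYMS was more than 2-fold higher in both, and TYMP was lower in both. DPYD was lower and UPP1 higher in both, each past 2-fold in PancB1V alone. Past 2-fold were 2 of 9 genes in PancB1Q, where 16.1% of 14937 expressed genes were, and 4 of 9 in PancB1V, where 16.7% of 15350 were. In PancB1Q 1 of them was higher (6.66% of all genes) and 1 lower (9.39%), and in PancB1V 2 were higher (9.6%) and 2 lower (7.14%). Both resistant lines share the 1 PancVB library, so they are not independent comparisons, and there was no replicate check. The ductal markers moved beside these genes as given above, and their part in the changes was not tested. In cultures read as a whole, fewer cells with a transcript and less of it per cell cannot be told apart.

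**Figure D1:**
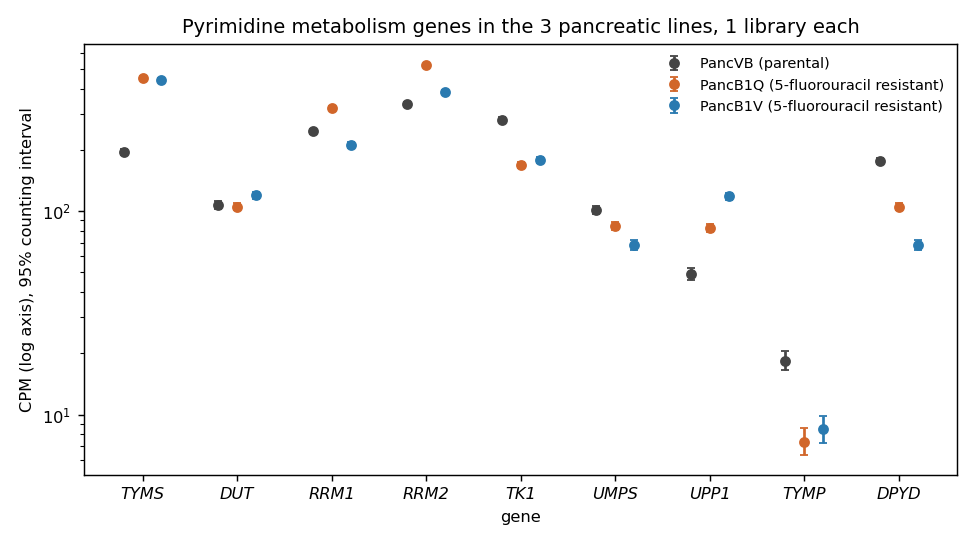
Levels of the 9 genes in CPM (log axis) in PancVB, PancB1Q and PancB1V, 1 library each, with 95% Wilson intervals of the counts. TYMS stands at 196, 452 and 442 CPM, and DPYD at 176, 105 and 68.0 CPM.

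TYMS had 196 CPM in PancVB, 452 in PancB1Q and 442 in PancB1V. The resistant libraries were both high and close to each other, 2.30-fold and 2.26-fold above PancVB. The log2 changes were 1.20 [1.14, 1.26] and 1.17 [1.11, 1.23], and the difference between the resistant lines was -0.03 [-0.07, 0.01]. Among all expressed genes the TYMS change stood at percentile 95.3 in PancB1Q and 92.6 in PancB1V.

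DPYD, the first enzyme of pyrimidine breakdown, had 176 CPM in PancVB, 105 in PancB1Q and 68.0 in PancB1V. The lines stood in that order with separate counting intervals. Its log2 changes were -0.74 [-0.81, -0.66] and -1.36 [-1.45, -1.27], at percentiles 16.6 and 3.66 of all genes. Of the enzymes that act further along, DPYS had no counts in the 3 lines and UPB1 was near 1 CPM.

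Among the activating enzymes, TYMP had 18.4 CPM in PancVB, 7.35 in PancB1Q and 8.46 in PancB1V. Both resistant libraries were low, with log2 changes of -1.22 [-1.46, -0.97] and -1.04 [-1.28, -0.79], the latter -0.99 with library sizes scaled by TMM. UPP1, which can also form the ribonucleoside of the drug, went the other way, with 49.2 CPM in PancVB, 82.5 in PancB1Q and 118 in PancB1V. Its log2 changes were 0.73 [0.62, 0.85] and 1.25 [1.13, 1.36]. UMPS, whose first activity attaches ribose phosphate to orotate or to the drug, had 102, 84.1 and 68.2 CPM, log2 changes of -0.27 [-0.36, -0.18] and -0.57 [-0.67, -0.47]. TK1 had 281 CPM in PancVB against 168 and 179 in the resistant lines, or -0.74 [-0.80, -0.68] and -0.64 [-0.71, -0.58]. Thus the phosphorylases moved in opposite directions, and UMPS and TK1 were lower in both lines by less than 2-fold.

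The enzymes of the deoxynucleotide supply stayed within 2-fold of PancVB. RRM1 had 247 CPM in PancVB, 321 in PancB1Q and 211 in PancB1V, on either side of the parental level. RRM2 had 336, 521 and 385 CPM, changes of 0.63 [0.59, 0.68] and 0.20 [0.15, 0.24]. DUT had 107, 105 and 120 CPM. In PancB1Q the DUT change was -0.03 [-0.11, 0.06] and turned to 0.15 with TMM, so its direction depends on the scaling. TMM moved the median change of all genes from -0.11 to 0.05 in PancB1Q and from 0.02 to 0.06 in PancB1V.

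The genes next to each of the 9 were read as well. Within 1 Mb of TYMS, 5 genes had a mean of at least 1 CPM over the Panc libraries. All 5 were higher in both resistant lines, with medians of 0.89 in PancB1Q and 0.86 in PancB1V. The medians of all genes were -0.11 and 0.02. The kinase gene YES1 had 172 CPM in PancVB and 386 and 365 in PancB1Q and PancB1V. The deubiquitinase gene USP14 had 173, 321 and 309 CPM. THOC1, of the mRNA export complex THO, had 65.0, 102 and 110 CPM. ENOSF1, which overlaps the end of TYMS, had 42.2, 58.2 and 77.3 CPM. COLEC12 had 0, 3.56 and 7.59 CPM, so it passed the filter only through the resistant lines, and the count of 5 is no test. These 5 neighbours thus stood between 0.46 and 2.19 above PancVB in PancB1Q and between 0.75 and 3.10 in PancB1V. COLEC12, a scavenger receptor gene, gave the upper end in each line. With a mean of at least 5 CPM as the filter, 4 neighbours remained, with medians of 0.76 in PancB1Q and 0.85 in PancB1V. In a window of 3 Mb, again at 1 CPM, the 15 genes had medians of 0.51 and 0.73. Beside the other 8 genes the medians lay between -0.46 (21 genes by TK1, PancB1Q) and 0.38 (17 genes by RRM2, PancB1Q), and the 5 neighbours of DPYD had medians of 0.22 and 0.19 while DPYD itself was lower. DNA copy number was not measured in these files, and its part in the TYMS change was not tested. The study sequenced the genomes at low coverage and reports small differences within pairs, except in those derived from HepG2.

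Other genes of the drug's pathways were counted from lists. In the 2 Panc comparisons no gene of the lists for de novo synthesis, salvage, breakdown, folate cycle, nucleotide pool or uracil excision was past 2-fold the same way in both. Of the 10 transporters and pumps, the efflux pump ABCC3 was, with 205 CPM in PancVB and 37.6 and 57.9 in PancB1Q and PancB1V. CAD, which starts de novo pyrimidine synthesis, had 417 CPM in PancVB, 207 in PancB1Q and 240 in PancB1V. UCK2, a uridine kinase, had 137 CPM in PancVB against 69.2 and 75.9. Of 15 S phase genes only the helicase subunit MCM2 was past 2-fold in both, at 462, 221 and 197 CPM, and the median changes of the list were -0.02 and -0.22. The median over 10 genes of G2 and mitosis was 0.51 in PancB1Q and 0.08 in PancB1V. The part of cycling in the change of the 9 genes was not tested.

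To see whether the same genes changed in lines made resistant to a drug that is not a pyrimidine, the sorafenib lines were compared with HepG2. Most of the 9 genes were far higher in HepG2S1 and HepG2S3, RRM1 above all, and TYMP was lower. The 2-fold threshold was passed by 8 of 9 genes in either line, 7 of them higher and 1 lower, where 44.7% of 15312 genes in HepG2S1 and 45.4% of 15062 in HepG2S3 passed it. Of all genes, 26.8% were past 2-fold higher in HepG2S1 and 27.5% in HepG2S3, and 18% and 17.9% lower. With library sizes scaled by TMM, the UPP1 change in HepG2S1 was 0.89, under 2-fold. As given above, both derived lines had little or none of the hepatocyte markers of HepG2, and whether this bears on the 9 genes was not tested. The pairs share the HepG2 libraries.

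RRM1 had 72.4 and 24.3 CPM in HepG2, 2904 in HepG2S1, and 3718 and 3736 in HepG2S3. All 3 derived libraries lay far above every other library of the study, in which IGROV-1/CDDP came next with 388 CPM. The fold over the HepG2 mean was 60.1 in HepG2S1 and 77.1 in HepG2S3. By edgeR's quasi-likelihood test with Benjamini-Hochberg adjustment, RRM1 rose in HepG2S3 by 5.94 on the log2 scale (SE 0.616, adjusted p = 0.000835, 2 libraries against 2), and 63.5% of 16929 genes were called. Neighbours of RRM1 on chromosome 11 were read after this value was known. These were the 18 genes within 1 Mb with a mean of at least 1 CPM over HepG2, HepG2S1 and HepG2S3. Past 2-fold higher in each sorafenib line were 13 of them, beside 26.8% and 27.5% of all genes. Genes without counts in HepG2, such as TRPC2 and MRGPRE, passed this filter only through the derived lines, so the count is no test. OSBPL5, a lipid transfer protein gene, had 0.0679 CPM in HepG2, 214 in HepG2S1 and 287 in HepG2S3. TRIM68 had 0.422 CPM in HepG2, then 194 and 258. The nucleoporin gene NUP98 had 227 CPM against 931 and 943. STIM1, the calcium sensor gene that adjoins RRM1, had 122, 103 and 144 CPM, so the neighbours did not all move alike. The study excepts the HepG2 pairs from its report of small copy number differences, and the part of copy number in the RRM1 change was not tested.

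**Figure D2:**
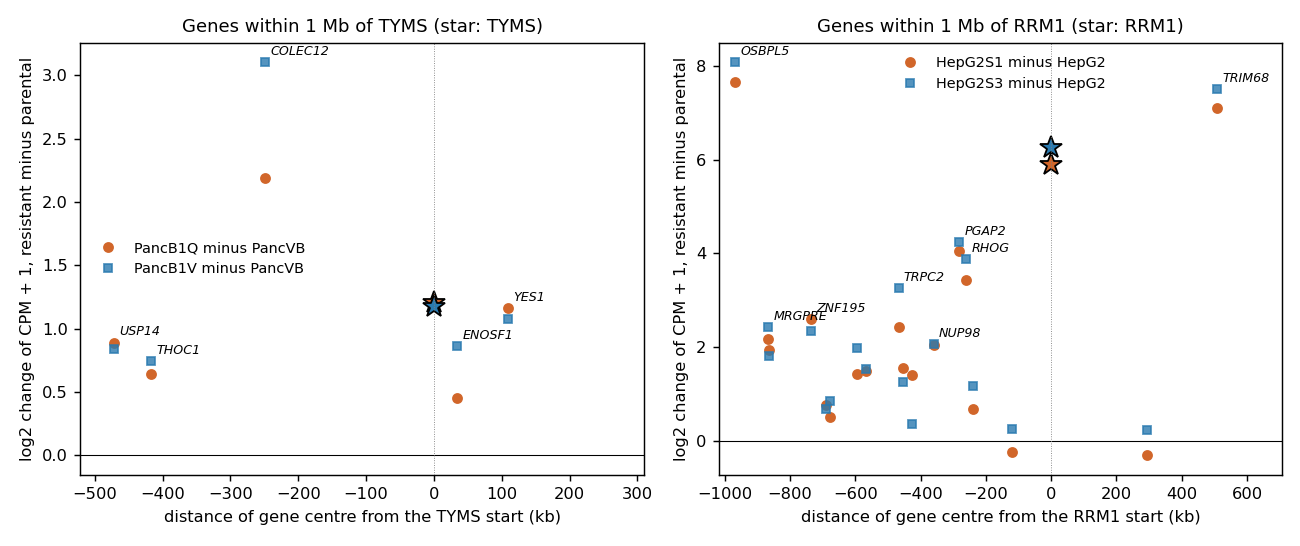
Log2(CPM + 1) change, resistant minus parental (y axis), against distance from the gene's start in kb (x axis), for genes within 1 Mb of TYMS in PancB1Q and PancB1V (left) and of RRM1 in HepG2S1 and HepG2S3 (right), with stars for TYMS and RRM1 themselves. All 5 neighbours of TYMS lie above 0 in both lines, with medians of 0.89 and 0.86, COLEC12 among them without counts in PancVB. Those of RRM1 spread from near 0 to 8.08.

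RRM2, the partner of RRM1 in the reductase, had 135 and 27.6 CPM in HepG2, 440 in HepG2S1 and 389 and 427 in HepG2S3. The groups did not overlap, but the parental libraries were far apart, and RRM2 missed the threshold in HepG2S3 with a log2 change of 2.00 (SE 0.713, adjusted p = 0.0549 by edgeR's quasi-likelihood test). TK1 had 42.8 and 12.7 CPM in HepG2 against 148 in HepG2S1 and 182 and 189 in HepG2S3. TK1 rose in HepG2S3 by 2.41 (SE 0.566, adjusted p = 0.0141, edgeR). TYMS had 98.0 and 69.2 CPM in HepG2, 318 in HepG2S1 and 422 and 452 in HepG2S3. TYMS thus stood high in all derived libraries, and it rose in HepG2S3 by 2.07 (SE 0.211, adjusted p = 0.000804, edgeR). DUT had 28.9 and 25.7 CPM against 192, 181 and 195. Its parental libraries were close, and it rose by 2.46 (SE 0.146, adjusted p = 0.000143, edgeR).

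The 2 HepG2 libraries differed in these genes, with replicate 1 above replicate 2 by 2.98-fold for RRM1, 3.37-fold for TK1 and 4.89-fold for RRM2. Without HepG2 replicate 1 the change in HepG2S3 was 6.95 for RRM1, 3.56 for TK1 and 3.58 for RRM2, and without replicate 2 it was 5.34, 1.77 and 1.25. All of these passed by edgeR's test, RRM2 included, but the lone HepG2 library is then assumed to vary as little as the HepG2S3 libraries do, and 75% and 74.4% of all genes passed. The summed level of the 10 genes of G2 and mitosis was 1356 CPM in HepG2 replicate 1 and 200 in replicate 2, compared with 3609 in HepG2S1 and 3700 and 3109 in HepG2S3. The summed level of the 15 S phase genes was 964 and 506 CPM in HepG2, 2718 in HepG2S1 and 2908 and 3051 in HepG2S3. By edgeR's quasi-likelihood test 13 of 15 S phase genes rose in HepG2S3, 15 without HepG2 replicate 1 and 14 without replicate 2, under the same assumption. Of the genes of G2 and mitosis 2 of 10 rose, against 10 without HepG2 replicate 1 and 8 without replicate 2, the latter with 1 that fell. The rise of TYMS, TK1, RRM1 and DUT thus stood beside one of the S phase list, whose part in their change was not tested.

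DPYD had 1.3 and 0.959 CPM in HepG2, 17.6 in HepG2S1 and 37.5 and 35.7 in HepG2S3. The derived libraries were all well above the parental ones, and DPYD rose in HepG2S3 by 4.68 (SE 0.237, adjusted p = 9.29e-05, edgeR). UPP1 had 16.6 and 15.7 CPM in HepG2, 40.7 in HepG2S1 and 120 and 107 in HepG2S3. It rose by 2.50 (SE 0.146, adjusted p = 0.000137, edgeR), and the HepG2S3 libraries lay well above HepG2S1. TYMP had 11.4 and 7.99 CPM in HepG2, 1.94 in HepG2S1 and 2.92 and 2.56 in HepG2S3. TYMP fell by 2.14 (SE 0.283, adjusted p = 0.00187, edgeR). UMPS had 65.2 and 69.3 CPM against 80.7, 74.5 and 84.2, a change of -0.08 (SE 0.136, adjusted p = 0.63, edgeR), whose sign turns with the scaling. TMM moved the median change of all genes from 0.30 to -0.08 in HepG2S1 and from 0.29 to 0.02 in HepG2S3. In all, 6 of the 9 genes rose in HepG2S3 (31.4% of all genes tested), 1 fell (32.1%) and 2 did not pass.

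Among the lists, both genes of de novo synthesis rose in HepG2S3 by edgeR's quasi-likelihood test, CAD by 1.82 and DHODH by 0.48. Of 9 salvage genes tested, 5 rose and 1 fell, and the cytidine deaminase CDA rose most, by 3.19. UPB1, the last enzyme of pyrimidine breakdown, was near 1 CPM and fell by 1.00, a call that was lost without HepG2 replicate 1 (-0.85).

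**Figure D3:**
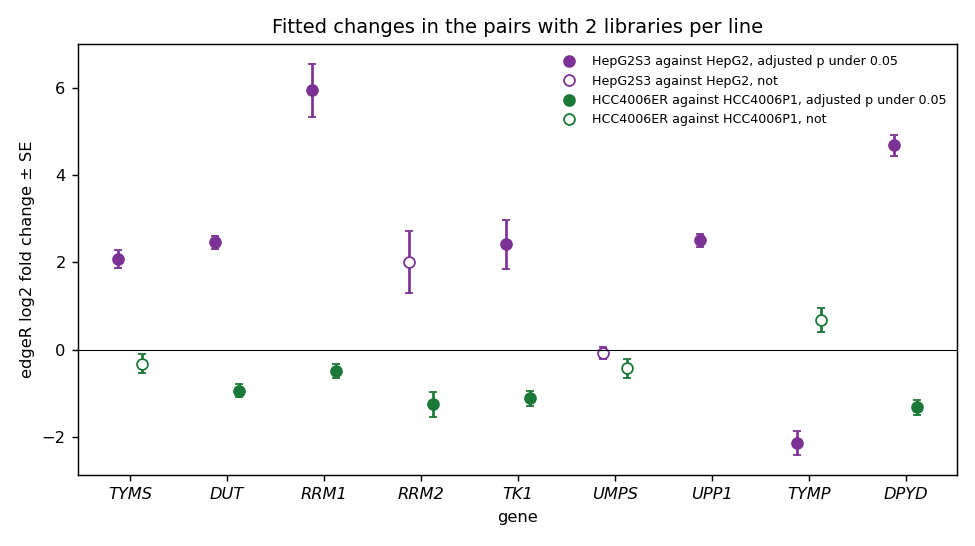
EdgeR log2 fold change ± SE (y axis) of each gene (x axis) in HepG2S3 against HepG2 and HCC4006ER against HCC4006P1, 2 libraries a line, with filled points where the adjusted p is under 0.05 and no HCC4006ER point for UPP1. RRM1 is at 5.94 in HepG2S3 and at -0.49 in HCC4006ER.

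The erlotinib line HCC4006ER gave the other replicated comparison, and TK1, RRM1, RRM2 and DUT fell there, while TYMS did not pass. Of the 8 genes positioned before the break, 5 fell and none of them rose past the adjusted threshold by edgeR's quasi-likelihood test, where 49% of 12791 genes were called, 24.9% lower and 24.1% higher. TK1 had 176 and 208 CPM in HCC4006P1 and 83.3 and 104 in HCC4006ER, and fell by 1.12 (SE 0.172, adjusted p = 0.00238, edgeR). RRM2 had 203 and 321 CPM against 94.8 and 138, and fell by 1.26 (SE 0.284, adjusted p = 0.0114, edgeR). For TK1 and RRM2 alike, both resistant libraries lay under both parental ones. DUT had 98.6 and 119 CPM against 59.6 and 60.0, and fell by 0.95 (SE 0.151, adjusted p = 0.00277, edgeR). RRM1 had 223 and 269 CPM against 170 and 202, a fall of 0.49 that passed narrowly (SE 0.163, adjusted p = 0.0467, edgeR) and no longer passed without either HCC4006ER library (adjusted p = 0.377 without replicate 1 and 0.0846 without replicate 2). TYMS had 51.7 and 63.8 CPM against 40.5 and 57.1, where the groups overlap, a change of -0.33 (SE 0.214, adjusted p = 0.25, edgeR).

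DPYD also fell, from 59.3 and 43.3 CPM in HCC4006P1 to 22.1 and 21.3 in HCC4006ER, or by 1.32 (SE 0.17, adjusted p = 0.00119, edgeR). TYMP had 23.3 and 12.3 CPM against 31.5 and 28.3, a change of 0.67 (SE 0.272, adjusted p = 0.0837, edgeR), with its parental libraries far apart. UMPS had 67.6 and 97.0 CPM against 60.6 and 68.9, which overlap, a change of -0.43 (SE 0.21, adjusted p = 0.134, edgeR). UPP1 had 119 CPM in HCC4006P1 replicate 2 and 55.5 and 67.4 in HCC4006ER. In a fit on all genes without HCC4006P1 replicate 1, chosen after seeing the data, UPP1 fell by 1.11 (SE 0.116, adjusted p = 6.96e-21, edgeR), with the lone parental library assumed to vary like the others. Without that library the number of the 9 genes called was 9, and it was 8 of 8 on the genes before the break, since TYMS, TYMP and UMPS then passed as well. Of all genes, 61.9% and 63.6% were called in those fits.

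Of the lists in HCC4006ER, both genes of de novo synthesis fell, and of 7 salvage genes 4 fell and 1 rose, with CDA falling by 1.98 and UCK2 by 1.14. UPB1, again near 1 CPM, rose by 1.35, a call that was lost without HCC4006P1 replicate 1 (1.02). In the same test 11 of 13 S phase genes and 2 of 10 genes of G2 and mitosis fell, so the fall of TK1, RRM1, RRM2 and DUT stood beside one of the S phase list, and its part in their change was not tested. The change in HepG2S3 was also set against that in HCC4006ER, and edgeR's test of the interaction called 7 of the 8 genes, 6 with a higher change in HepG2S3 and TYMP with a lower one. Of all genes it called 55.9%, 28.2% with a higher and 27.7% with a lower change in HepG2S3.

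**Figure D4:**
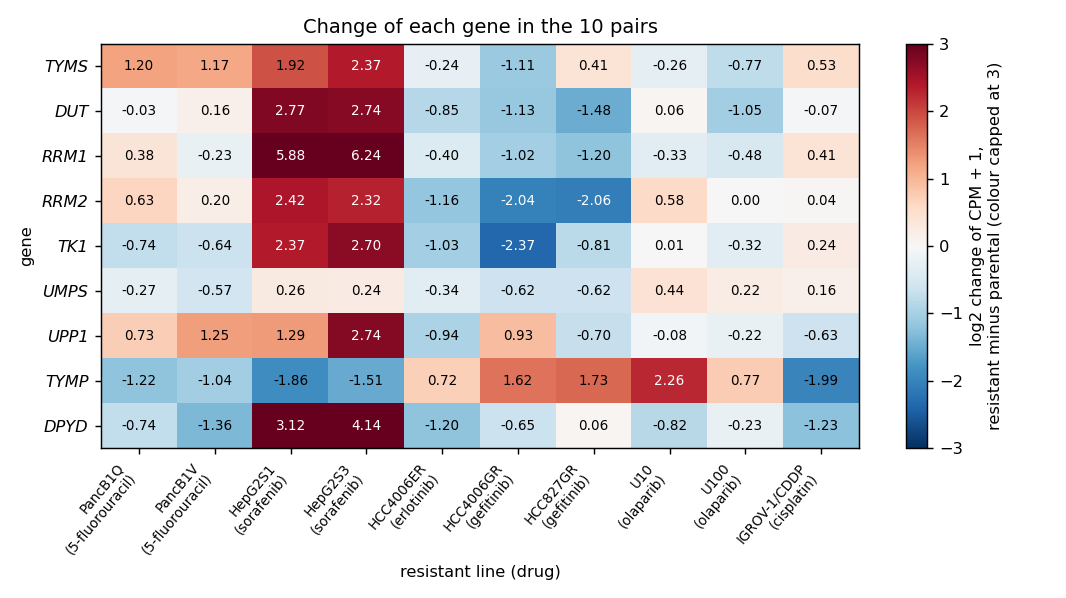
Log2(CPM + 1) change from the parental line (colour, capped at 3, with the value printed in each cell) of each of the 9 genes in the 10 resistant lines. The sorafenib lines are high for all genes but TYMP and UMPS, and the gefitinib line HCC4006GR is low for TYMS, TK1, RRM1, RRM2 and DUT.

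The remaining pairs had 1 library per line and no replicate check. In the gefitinib line HCC4006GR, 6 of 9 genes were past 2-fold, where 15.6% of all genes were, 5 of them lower (7.83% of all genes) and 1 higher (7.76%). TK1 had 156 CPM in HCC4006P2 and 29.5 in HCC4006GR, RRM2 241 and 57.9, DUT 95.6 and 43.1, RRM1 180 and 88.3 and TYMS 36.6 and 16.4. These replication genes were all past 2-fold lower, RRM1 only without TMM (-0.94 with it), and 13 of 15 S phase genes and 10 of 10 genes of G2 and mitosis were also past 2-fold lower. TYMP went the other way, with 63.9 CPM in HCC4006P2 and 198 in HCC4006GR, the highest level of any line. In the other gefitinib line, HCC827GR, 4 of 9 genes were past 2-fold (18.9% of all genes), 3 lower (7.73%) and 1 higher (11.2%). RRM2 had 674 CPM in HCC827P and 161 in HCC827GR, DUT 101 and 35.4, RRM1 287 and 124, and TYMP 13.4 and 46.6. TYMS in the HCC827 lines had 113 and 151 CPM, so it did not follow RRM2 there. Of the cycle genes, 6 of the S phase list and 6 of the mitosis list were past 2-fold lower in HCC827GR.

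In the ovarian lines fewer of the 9 moved. TYMP had 5.19 CPM in UWB1.289 and 28.7 in the olaparib line U10, a change of 2.26 [1.86, 2.64], the only one of 9 past 2-fold (12% of all genes, 6.36% higher and 5.63% lower). DUT had 53.5 CPM in UWB1.289 and 25.3 in U100, a change of -1.05 [-1.26, -0.84], likewise the only one there (8.76% of all genes, 6.87% higher and 1.88% lower). U10 and U100 share the UWB1.289 library. In the cisplatin line IGROV-1/CDDP, DPYD had 71.5 CPM against 169 in IGROV-1, a change of -1.23 [-1.32, -1.14]. TYMP had 2.06 CPM against 11.1, a change of -1.99 [-2.32, -1.62], and these were the 2 of 9 past 2-fold (13.3% of all genes, 5.67% higher and 7.62% lower). TYMS stood at 258 CPM before and at 374 after cisplatin selection.

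Whether any of the 9 changed in one direction across cancers was tested with each parental line as a block and its resistant lines summed. Of the 9, 0 passed in edgeR's quasi-likelihood test with Benjamini-Hochberg adjustment, in which 0% of 19829 genes passed, 920 had an unadjusted p under 0.05, and DESeq2 called 102 genes, 0 of them among the 9. The log2 change fitted by edgeR over the 7 parental lines lay between -0.42 for TK1 and 0.30 for TYMS, with adjusted p from 0.994 to 0.998. The sign of TYMP varied with the pair: it was past 2-fold higher in HCC4006GR, HCC827GR and U10, and past 2-fold lower in PancB1Q, PancB1V, HepG2S1, HepG2S3 and IGROV-1/CDDP.

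**Figure D5:**
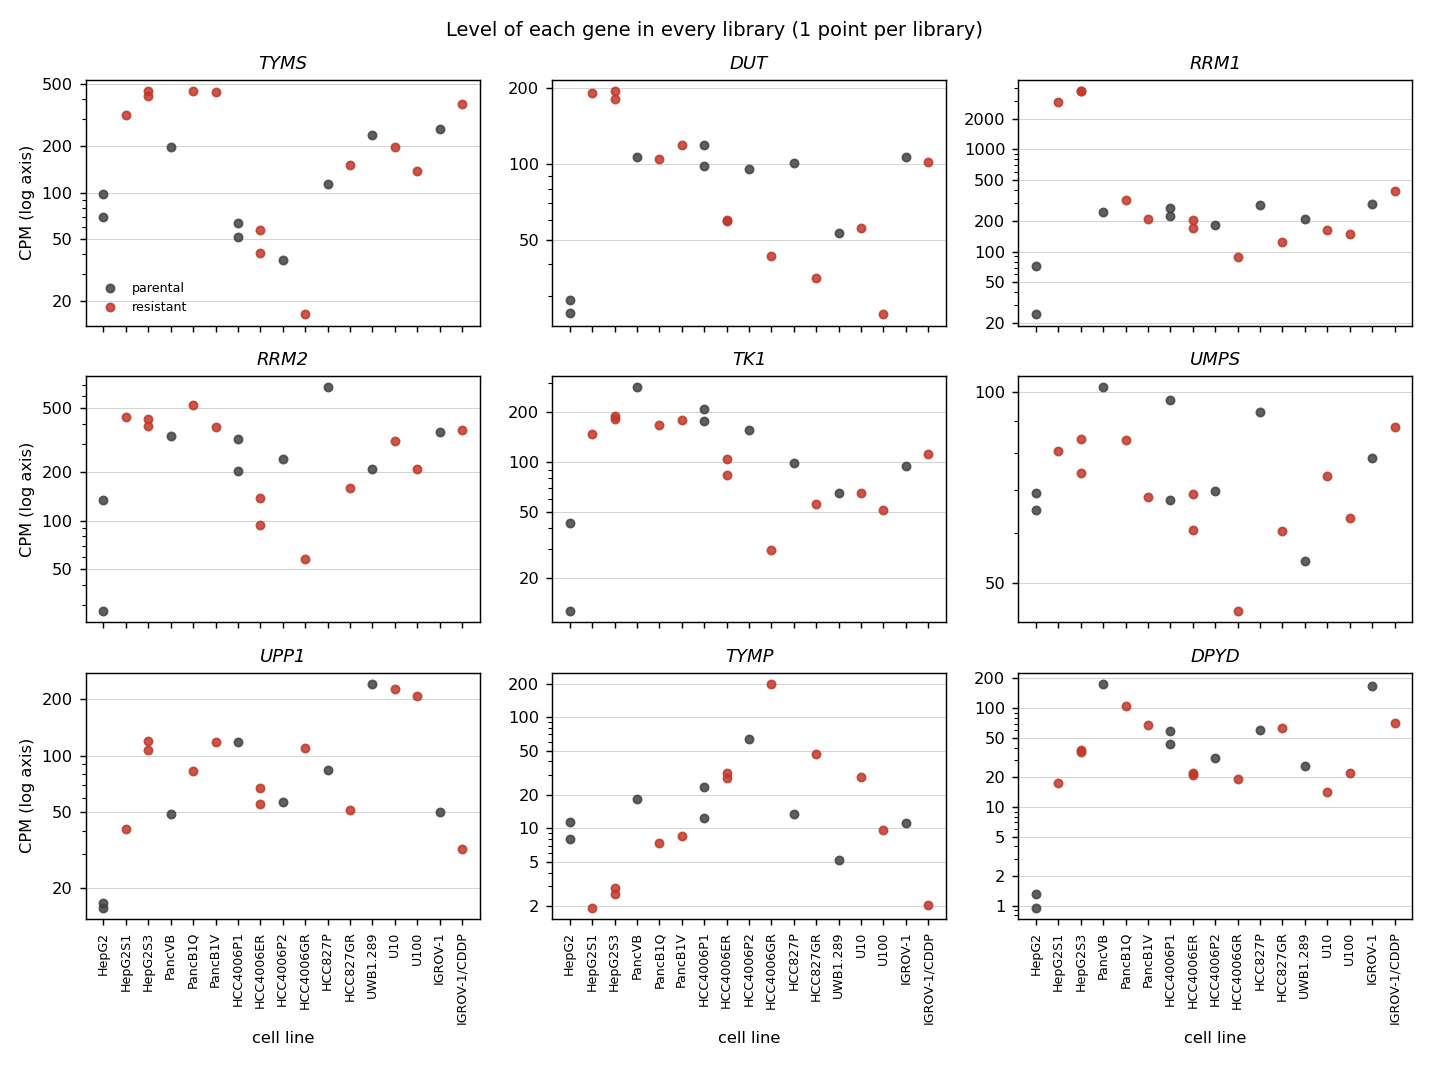
Level in CPM (log axis) of each of the 9 genes in the 21 libraries, grouped by parental line with parental and resistant libraries marked. RRM1 stands apart in the HepG2S1 and HepG2S3 libraries, at 2904 to 3736 CPM.

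Over the 17 lines, the genes differed in how far their levels ranged. Lines were compared by their Wilson intervals, and for a line with 2 libraries the interval ran from the lowest to the highest bound of both. Such intervals also hold the spread between libraries and overlap more readily. UMPS had the narrowest range, from 45.2 CPM in HCC4006GR to 102 in PancVB, with 15 of 16 steps between lines next to each other in order within their intervals. DPYD ranged most, from 1.13 CPM in HepG2 to 176 in PancVB, a ratio of 155. PancVB and IGROV-1, with 169 CPM, overlapped at the top of the DPYD order, and 12 of 16 steps overlapped in all. TYMP went from 1.94 CPM in HepG2S1 to 198 in HCC4006GR, with HCC4006P2 next at 63.9 and no overlap between them. The TYMS order was led by PancB1Q (452 CPM), PancB1V (442) and HepG2S3 (mean 437), which overlapped, and ended with HCC4006GR (16.4), which did not overlap HCC4006P2 (36.6). PancVB itself was the median line for TYMS, with 196 CPM, level with U10 (197).

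UPP1 went from 16.1 CPM in HepG2 to 240 in UWB1.289, and the 3 lines of the UWB1.289 family led its order. TK1 was highest in PancVB (281 CPM), above HCC4006P1 (192), and lowest in HepG2 (27.8), which overlapped HCC4006GR. RRM2 was highest in HCC827P (674 CPM), followed by PancB1Q (521), and lowest in HCC4006GR (57.9). DUT was highest in HepG2S1 (192 CPM) and HepG2S3 (188), which overlapped, and lowest in U100 (25.3) and HepG2 (27.3), which overlapped as well. For RRM1, 7 of 16 steps overlapped, and HepG2S3 stood above HepG2S1.

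For each gene, the one of 15102 expressed genes with the most similar pattern over the 17 lines was looked up by Pearson's r of log2(CPM + 1), which is a description, since lines of one parent share their origin. RRM2 was most like the condensin gene NCAPG2 (r = 0.94), DUT like PCLAF (r = 0.92), which encodes a PCNA-binding protein, and TK1 like DYNC2I2 (r = 0.89). TYMS was most like RPUSD3 (r = 0.94) and RRM1 like HSP90AA2P (r = 0.94), a pseudogene of the chaperone HSP90 whose reads may be shared with its parent gene. RRM1 stood apart in HepG2S1 and HepG2S3, at 2904 and 3727 CPM against at most 388 elsewhere, so its r leans on those lines. Its neighbour NUP98 came second (r = 0.92). DPYD was most like the gap junction gene GJC1 (r = 0.87), TYMP like the AMP deaminase AMPD3 (r = 0.90), UPP1 like EIF4G3 (r = 0.89) and UMPS like TOMM5 (r = 0.82).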

How the data were processed

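RNA-seq counts per Ensembl gene were deposited by the authors for 21 libraries of 17 cell lines, and the submitters' processing notes name Bowtie, TopHat, SAMtools and HTSeq with hg19. The labels give a stranded mRNA kit, while the study's methods also name a 3′ kit without saying for which libraries. Counting settings are not given in the sources used here. Positions came from the GRCh37 annotation, matched for 45100 of 53515 genes. CPM used counts on the 36406 genes before the break in HCC4006P1 replicate 1 as the total, with Wilson intervals (95%). Counts were tested with edgeR 4.0.16 (TMM, filterByExpr, quasi-likelihood, Benjamini-Hochberg, adjusted p under 0.05) in R 4.3.3, with DESeq2 1.42.0 as an alternative, after the code was tested on simulated data. Tables were joined with Python 3.11.15 and pandas 2.3.3. The 7-line test used HCC4006P1 replicate 2 alone. Labels do not say that replicates came from separate cultures, so p-values measure the spread between these libraries only. Intervals cover counting error only, except that in the order of lines the interval of a line with 2 libraries spans both.

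The 9 genes and all lists were chosen with earlier results of these data known. All 9 genes were named in every pair, list genes when past 2-fold the same way in both Panc lines or past a test, and for each of the 9 the gene most like it. CAD, UCK2, DPYS and UPB1 in the Panc lines, the RRM1 neighbours and the list counts without each HepG2 library were added after the values were seen. Some genes of the lists are not reported here.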

Additional observations from a re-analysis of the deposited data

Results flagged for a closer look

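The change in HepG2S3 from HepG2 differed from the change in HCC4006ER from HCC4006P1 for 7 of the 8 genes that could be tested, by edgeR's quasi-likelihood test of the interaction (2 libraries a line, Benjamini-Hochberg), in which 55.9% of 14479 genes passed. Differences are log2 changes in HepG2S3 minus those in HCC4006ER. RRM1 differed by 6.46 (adjusted p = 3.37e-05, edgeR) and DPYD by 6.03 (adjusted p = 6.09e-07, edgeR), since both rose in HepG2S3 and fell in HCC4006ER. The same held for TK1 at 3.57 (adjusted p = 0.00127, edgeR) and DUT at 3.44 (adjusted p = 3.47e-06, edgeR). RRM2 differed by 3.30 (adjusted p = 0.00903, edgeR) and TYMS by 2.42 (adjusted p = 0.000276, edgeR), although RRM2 had not passed in HepG2S3 alone and TYMS had not in HCC4006ER alone. TYMP differed the other way, by -2.78 (adjusted p = 0.000516, edgeR), and fell in HepG2S3. UMPS differed by 0.38 and did not pass (adjusted p = 0.288, edgeR). Of the S phase list 13 of 13 genes, and of the list of G2 and mitosis 3 of 10, had a higher change in HepG2S3 in this test, and their part in the differences was not tested. The count of 3 was 10 without HepG2 replicate 1, 8 without HepG2 replicate 2, 9 under the replicate block and 1 without HCC4006P1 replicate 1. Drug, tissue and line cannot be told apart here.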

How the results depend on the processing

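In HCC4006ER against HCC4006P1, 6266 genes and 5 of the 9 passed. Over all genes, where HCC4006P1 replicate 1 lacks counts, 3417 genes and 1 of the 9 passed, and leaving out 1 library gave 4046 to 8370 genes and 4 to 8 of the 9. Without HCC4006P1 replicate 1 over all genes the counts were 10281 and 9. Under a block for the replicate number, 7787 genes and 8 of the 9 passed there, TYMS, TYMP and UMPS among them, and in HepG2S3 10561 genes against 10744. Under this block UPB1 lost its call in HepG2S3 (-0.99), and of the 2 genes of de novo synthesis only 1 kept it there. Correlations of same-numbered deviations were 0.0109 for the HepG2 pair and 0.264 for the HCC4006 pair, with 2 libraries a line. Labels of the replicated lines end in A or B, matching the replicate numbers, without saying that equal letters belong together. Libraries were not taken as paired, and 2 libraries a line cannot settle whether they are. RRM2 passed in HepG2S3 under the block, with no filter and without either HepG2 library (range 1.25 to 3.58). The UMPS change there ranged from -0.167 to 0.0325 on leaving out 1 library. Over the 7 parental lines, DESeq2 called 102 genes against 0. On leaving out 1 parental line and its derivatives, changes there ranged from -0.0842 to 0.472 for UPP1 (lowest without HepG2), from -0.43 to 0.303 for RRM1 (below 0 without HepG2 and without IGROV-1) and from -0.16 to 0.612 for TYMP (below 0 without HCC4006P1, HCC4006P2, HCC827P or UWB1.289). These causes were not tested. TMM took TYMP in PancB1V under 2-fold (5 against 6 of 18 changes). In the other 8 pairs 33 of 72 changes were past 2-fold, against 31 to 34 under the alternatives. Of 356 tested member values under alternatives, 326 kept direction and call, 16 gained it, 6 lost it and 8 reversed, and of 378 untested ones 340 stayed within the spread.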

Other observations

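Lists around the drug's pathway that the comparisons above left out were read in the 2 replicated pairs, by edgeR's quasi-likelihood test with Benjamini-Hochberg adjustment. Of all genes tested, 31.4% rose and 32.1% fell in HepG2S3, and 24.1% rose and 24.9% fell in HCC4006ER. Genes that remove uracil from DNA rose in HepG2S3, 4 of 4, among them the glycosylases UNG by 1.85 and MBD4 by 1.62, and 2 of 4 fell in HCC4006ER, UNG by 0.89 and MBD4 by 0.52. Of the folate enzymes, SHMT1 rose by 1.26 and MTHFD1 by 0.85 in HepG2S3, where MTHFD2 fell by 0.73, and in HCC4006ER SHMT1 fell by 1.73 and MTHFD2 by 1.06. Of the nucleotide pool genes, 3 of 7 fell in HepG2S3, a share near that of all genes, the p53-induced reductase subunit RRM2B by 2.44, the dNTPase SAMHD1 by 1.60 and the dCMP deaminase DCTD by 1.19, while CTPS1 rose by 1.57. RRM2B thus changed against RRM1, the subunit it shares with RRM2. Of 8 transporters and pumps 5 fell and 2 rose in HepG2S3. SLC22A7 had 5.72 and 3.52 CPM in HepG2 and SLC28A1 0.502 and 0.639, and both had no counts in HepG2S3, while the pump ABCC11 fell by 2.85 and the transporter SLC29A1 by 0.74. The nucleoside transporter SLC29A2 rose by 2.88 in HepG2S3 and fell by 1.02 in HCC4006ER, and the efflux pump ABCC3 fell in both, by 0.73 and 2.00, with ABCC4 rising in both, by 1.26 and 1.22. No list was tested as a whole for a difference between the pairs. Gene by gene, edgeR's interaction test called a higher change in HepG2S3 for 3 of 4 uracil excision and 4 of 7 folate genes, and none lower. It called 2 higher and 1 lower of 5 nucleotide pool genes, and 2 higher and 2 lower of 8 transporters and pumps. Of all genes, 28.2% were higher and 27.7% lower.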
